A study of Saccharomyces cerevisiae with 12 samples.

Results

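The 10 genes described here encode the enzymes, the transporter and the transcription factors of inositol-regulated phospholipid synthesis in Saccharomyces cerevisiae: INO1 (YJL153C), ITR1 (YDR497C), CHO1 (YER026C), PSD1 (YNL169C), CHO2 (YGR157W), OPI3 (YJR073C), CKI1 (YLR133W), INO2 (YDR123C), INO4 (YOL108C) and OPI1 (YHL020C). They were named for that role by a rule that uses no measured value, though with earlier results of these data known, and they are 10 of the 7126 features in each expression file. All 10 passed the filter on low values, which kept 5956 features. Total RNA depleted of ribosomal RNA was sequenced from 12 libraries in 4 groups of 3, described by the submitters as biological triplicates, from mid-log cultures grown at 24 °C in synthetic complete (SC) medium whose inositol and choline content is not given in the sources used here. The study compared strains lacking subunits of NuA4, the histone acetyltransferase complex whose catalytic subunit is Esa1 and whose scaffold subunit is Epl1, with the wild type. NuA4 is essential, and the mutant strains are labelled as also deleted for SDS3, a gene of the Rpd3L histone deacetylase complex.

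All strains were of the W303 background and mating type MATα. The wild type (WT) carried the ADE2 and CAN1 alleles ade2-1 and can1-100, the HIS3 allele his3-11, a marker allele of LEU2, and for TRP1 and URA3 the alleles trp1-1 and ura3-1. The 3 mutant groups were labelled epl1∆ sds3∆ (epl1∆::kanMX with sds3∆::natMX), esa1∆ sds3∆ (esa1∆::HIS3 with sds3∆::natMX) and esa1∆ epl1∆ sds3∆ (esa1∆::HIS3, with epl1∆::kanMX and sds3∆::natMX). No strain with sds3∆ alone was analysed here, so a difference of a mutant group from the wild type cannot be told apart from one that goes with the sds3∆ label. The genes labelled as deleted were read first. ESA1 had 256, 181 and 310 reads in the WT libraries and 1 to 3 in the 6 libraries labelled esa1∆, and EPL1 had 142, 73 and 130 reads in WT and 4 to 13 in the 6 libraries labelled epl1∆. SDS3 was lower in the libraries labelled sds3∆ but was not near absent. It had 142, 112 and 158 reads in WT and between 36 and 77 in every one of the 9 libraries labelled sds3∆. Its level was 8.93 ± 0.421 scaled RPKM in WT against 5.26 ± 0.402, 5.66 ± 0.897 and 5.83 ± 1.95. In the limma fit described below it was called lower (log2 fold changes -0.67, -0.58 and -0.58, adjusted p = 0.0049, 0.0107 and 0.0112). With 1 value per gene, where in SDS3 the remaining reads lie cannot be told. The mutant groups are therefore named below only as they were labelled. The reads behind each file numbered 8089179 to 14527280, and protein-coding genes took 64.6% to 65.5% of them in WT and 53.2% to 56.7% in the mutant libraries; the part of this difference in the results below was not tested. In bulk RNA, fewer transcripts per cell and a smaller share of total RNA cannot be told apart.

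Yeast makes phosphatidylinositol from inositol and CDP-diacylglycerol, and phosphatidylcholine either by decarboxylating and methylating phosphatidylserine or, from choline, by the Kennedy pathway. Genes of both routes carry the element UASINO, which the basic helix-loop-helix activators Ino2 and Ino4 bind as a heterodimer. When inositol is scarce, phosphatidic acid and the membrane protein Scs2 hold the repressor Opi1 at the endoplasmic reticulum, and when inositol is added Opi1 moves to the nucleus and represses through Ino2. INO1 is also repressed through the element URS1, which Ume6 binds and from which it recruits the Sin3-Rpd3 deacetylase, the complex to which Sds3 belongs.

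The sequences around the gene starts are shown for some of the genes. INO1, CHO1 and PSD1 were lower than WT in at least 1 mutant group. OPI3 and CHO2 encode consecutive methylation enzymes, of which only CHO2 was called, and INO2 was higher. CKI1, which was also called lower in each mutant group, is not shown. Each sequence runs 5′ to 3′ on the gene's strand from 250 bases before to 50 bases after the annotated start, in the RefSeq R64 assembly (sacCer3), which is the reference strain S288C and not W303. Capitals mark the UASINO core CATGTG or its reverse complement.
INO1 (chrX:135884-136183, minus strand): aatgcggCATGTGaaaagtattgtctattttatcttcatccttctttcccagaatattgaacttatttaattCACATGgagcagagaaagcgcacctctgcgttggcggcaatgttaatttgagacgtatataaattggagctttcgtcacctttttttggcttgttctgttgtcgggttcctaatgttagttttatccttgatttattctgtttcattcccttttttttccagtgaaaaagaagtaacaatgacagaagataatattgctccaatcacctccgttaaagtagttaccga
CHO1 (chrV:208425-208724, minus strand): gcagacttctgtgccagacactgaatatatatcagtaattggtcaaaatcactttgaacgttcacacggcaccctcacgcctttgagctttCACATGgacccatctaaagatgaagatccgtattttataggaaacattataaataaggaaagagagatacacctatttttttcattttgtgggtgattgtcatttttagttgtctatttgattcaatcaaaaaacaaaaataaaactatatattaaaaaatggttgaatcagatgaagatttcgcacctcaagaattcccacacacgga
PSD1 (chrXIV:317622-317921, minus strand): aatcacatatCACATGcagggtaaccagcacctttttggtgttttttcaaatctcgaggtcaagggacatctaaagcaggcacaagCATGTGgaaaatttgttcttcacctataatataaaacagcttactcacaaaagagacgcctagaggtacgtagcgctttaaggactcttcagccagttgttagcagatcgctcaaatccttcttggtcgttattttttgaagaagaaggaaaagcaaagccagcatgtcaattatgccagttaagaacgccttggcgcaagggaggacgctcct
CHO2 (chrVII:802190-802489, plus strand): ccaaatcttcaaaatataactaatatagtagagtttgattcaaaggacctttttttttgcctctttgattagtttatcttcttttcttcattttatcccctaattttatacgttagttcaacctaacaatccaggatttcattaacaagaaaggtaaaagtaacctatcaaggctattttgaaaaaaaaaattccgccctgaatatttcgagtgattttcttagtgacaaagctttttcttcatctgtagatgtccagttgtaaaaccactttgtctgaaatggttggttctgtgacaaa
OPI3 (chrX:572886-573185, minus strand): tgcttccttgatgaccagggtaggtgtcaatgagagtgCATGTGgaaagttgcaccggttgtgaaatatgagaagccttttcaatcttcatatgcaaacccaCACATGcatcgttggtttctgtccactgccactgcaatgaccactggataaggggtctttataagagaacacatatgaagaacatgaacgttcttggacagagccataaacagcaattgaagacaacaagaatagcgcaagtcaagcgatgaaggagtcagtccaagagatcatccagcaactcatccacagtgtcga
INO2 (chrIV:699419-699718, minus strand): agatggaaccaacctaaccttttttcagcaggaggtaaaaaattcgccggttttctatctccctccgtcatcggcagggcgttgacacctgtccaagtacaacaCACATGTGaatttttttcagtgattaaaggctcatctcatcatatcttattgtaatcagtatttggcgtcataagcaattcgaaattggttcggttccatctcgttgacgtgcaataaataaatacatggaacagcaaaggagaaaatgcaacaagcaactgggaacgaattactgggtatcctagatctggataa

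Searched on both strands, the core CATGTG was present in 8 of the 10 windows, against 416 of the 6001 windows of the same length at nuclear protein-coding genes (6.93%), called all windows below. It lay 243 and 178 bases before the start of INO1, 240 and 164 before that of PSD1, and 212 and 148 before that of OPI3. INO2 had overlapping matches on opposite strands at 146 and 144 bases, which share 4 letters and read as 1 palindromic site. The single matches lay at 221 bases for ITR1, 193 for CKI1, 159 for CHO1 and 121 for INO4. At least 2 matches, counting the overlapping pair of INO2 as 2, were present in 4 of the 10 windows and in 36 of all windows (0.600%). The longer form CATGTGA, which contains the core, was present in 7 of the 10 windows and in 119 of all windows (1.98%). OPI3 held the core but not the longer form. The windows of CHO2 and OPI1 held neither, which says only that these letters are not in these windows. The URS1 core GGCGGC, on either strand, was present in the windows of INO1 (146 bases before the start) and INO4 (31 bases before), and in 308 of all windows (5.13%). These matches are descriptions of the letters and show no binding. The 10 genes were named for inositol regulation, of which UASINO is the known element. A share of UASINO matches above that of all windows is therefore not an independent result.

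**Figure D1:**
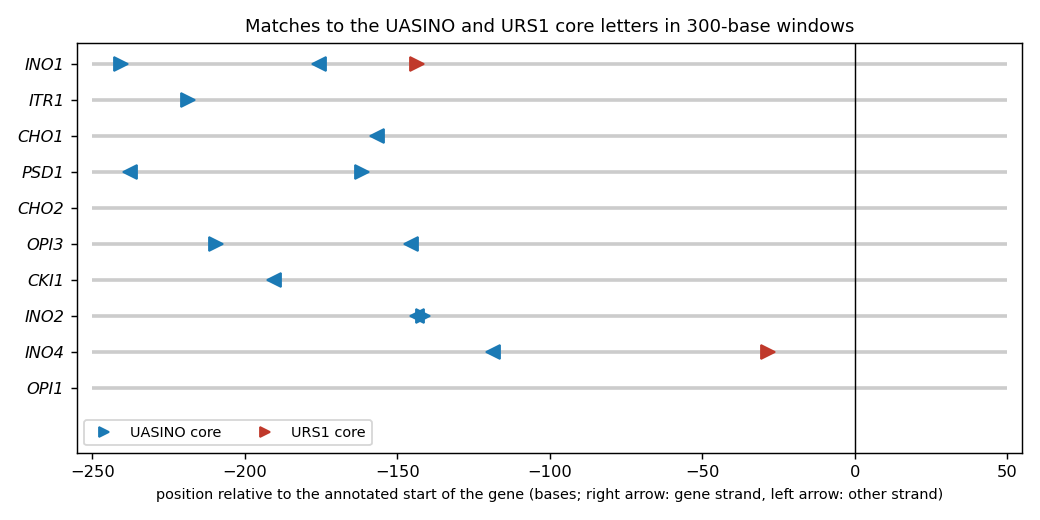
Position of each match to the UASINO core (blue) and the URS1 core (red) in the 300-base window of each of the 10 genes, in bases from the annotated start (vertical line at 0). Arrows to the right are matches on the strand of the gene and arrows to the left matches on the other strand; 8 genes have a UASINO core match, and CHO2 and OPI1 have none.

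Levels are given as RPKM, reads per kilobase of feature length normalised to the reads of the library, rescaled between libraries by 1 factor each so that the median gene has the same level, and fold changes are on the log2(scaled RPKM + 1) scale. In WT, INO1 had the highest level of the 10 genes at 1857 ± 186 scaled RPKM, 67th of the 5956 features tested. OPI3, ITR1 and CHO1 followed at 1547 ± 75.0, 1353 ± 212 and 1229 ± 138; the WT libraries of OPI3 and ITR1 overlapped, as did those of ITR1 and CHO1. CHO2 (565 ± 61.2) and PSD1 (168 ± 11.1) came next, and the kinase and the regulators were far lower, with CKI1 at 38.7 ± 1.81, OPI1 at 33.9 ± 0.749, INO4 at 22.5 ± 4.81 and INO2 at 11.7 ± 1.63 scaled RPKM. In each mutant group OPI3 was first by its mean and INO1 second, with overlapping libraries, and INO2 stayed last but overlapped INO4. In the RefSeq R64 annotation each gene is 1 exon, and none overlaps another annotated gene: INO1 at chrX:134332-135933, ITR1 at chrIV:1443713-1445467, CHO1 at chrV:207644-208474, PSD1 at chrXIV:316169-317671, CHO2 at chrVII:802440-805049, OPI3 at chrX:572315-572935, CKI1 at chrXII:408445-410193, INO2 at chrIV:698554-699468, INO4 at chrXV:111431-111886 and OPI1 at chrVIII:66242-67456. The level of INO2 rested on 99 to 224 reads per library, that of INO4 on 61 to 214, and that of every other gene of the 10 on at least 232.

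**Figure D2:**
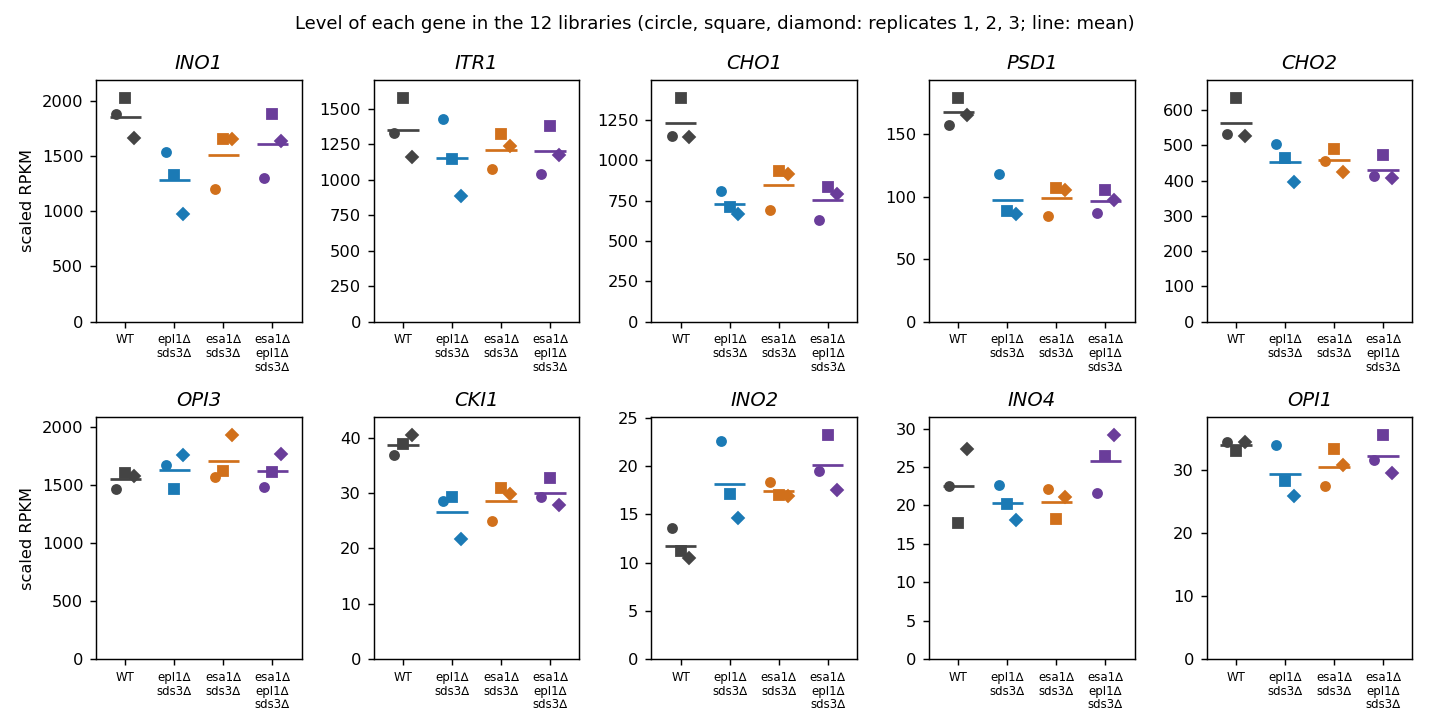
Scaled RPKM (vertical axis, from 0) of the 10 genes in the 12 libraries, by group; circles, squares and diamonds are replicates 1, 2 and 3, and lines are group means. For CHO1, PSD1, CHO2 and CKI1 all 9 mutant libraries lie below all WT libraries, and for INO2 all lie above them. The share of all features that lie apart in this way was not counted.

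Against WT, 6 of the 10 genes were called in the libraries labelled epl1∆ sds3∆, 5 in esa1∆ sds3∆ and 5 in esa1∆ epl1∆ sds3∆, by limma with Benjamini-Hochberg adjustment over all 5956 features and an adjusted p under 0.05. CHO1, PSD1, CHO2 and CKI1 fell in all 3 mutant groups, INO1 fell in epl1∆ sds3∆, and INO2 rose in all 3. Of all features tested, 60.1%, 59.7% and 59.4% were called in the same 3 comparisons, so the shares among the 10 genes (6, 5 and 5 of 10) were near the background. In the direction of a fall, 5, 4 and 4 of the 10 were called against 30%, 29.7% and 29.3% of all features, and in the direction of a rise 1, 1 and 1 of the 10 against 30.1%, 30% and 30.1%. The median log2 fold change of the 10 genes was -0.28, -0.23 and -0.20, beside -0.01, -0.01 and 0.00 over all features. With RPKM as deposited, without the rescaling between libraries, the median of all features was -0.24, -0.24 and -0.18, and values quoted below for that setting are to be read against it. The 3 comparisons share the WT libraries, so their agreement is not independent. How many of all features had mutant libraries wholly above or below WT was not counted. Such separation is given below as a description and not as a trait of these genes.

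**Figure D3:**
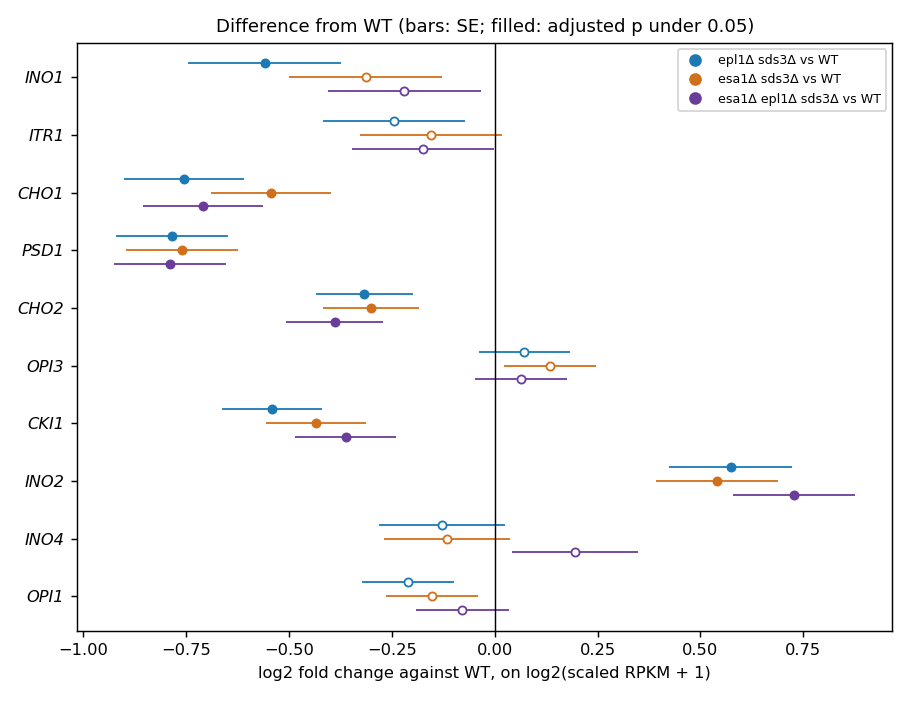
Log2 fold change against WT (horizontal axis, log2 of scaled RPKM + 1) of the 10 genes in the 3 mutant groups; bars are standard errors and filled points have an adjusted p under 0.05 in limma. CHO1 and PSD1 lie between -0.54 and -0.79, INO2 between 0.54 and 0.73, and the OPI3 points just right of 0 turn negative with RPKM as deposited and with quantile normalization.

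INO1 encodes inositol-3-phosphate synthase, which makes inositol-3-phosphate from glucose-6-phosphate, the committed step of inositol synthesis. Its WT libraries had 1882, 2028 and 1659.6 scaled RPKM, and the libraries labelled epl1∆ sds3∆ had 1536, 1329 and 971. All of these epl1∆ sds3∆ libraries were below all of WT, and replicate 3 was the lowest of the 12 libraries. The esa1∆ sds3∆ libraries had 1202, 1656 and 1657, and the esa1∆ epl1∆ sds3∆ libraries had 1302, 1882 and 1636. Within the latter group replicate 2 reached the WT range, while every esa1∆ sds3∆ library was below the lowest WT library, by little for replicates 2 and 3. INO1 fell in epl1∆ sds3∆ to 68.9% of WT (log2 fold change -0.56, SE 0.19, limma adjusted p = 0.0199). In esa1∆ sds3∆ the mean was 81.1% of WT (-0.31, SE 0.19, limma adjusted p = 0.163) and in esa1∆ epl1∆ sds3∆ 86.5% (-0.22, SE 0.19, limma adjusted p = 0.324), and neither was called. The call in epl1∆ sds3∆ was lost without WT replicate 2 (log2 fold change -0.49, limma adjusted p = 0.0627) or without epl1∆ sds3∆ replicate 3 (-0.37, adjusted p = 0.0962). With quantile normalization INO1 was called lower in esa1∆ sds3∆ (-0.81, limma adjusted p = 0.00224) and esa1∆ epl1∆ sds3∆ (-0.60, adjusted p = 0.0129), and with RPKM as deposited in esa1∆ sds3∆ (-0.57, adjusted p = 0.0141). In the other direction, these log2 fold changes shrank to -0.16 in esa1∆ sds3∆ without its replicate 1 (limma adjusted p = 0.508) and to -0.077 in esa1∆ epl1∆ sds3∆ without its replicate 1 (adjusted p = 0.767).

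ITR1 encodes the main myo-inositol transporter of the plasma membrane. It had 1325, 1577 and 1156 scaled RPKM in WT, 1424, 1147 and 888 in epl1∆ sds3∆, 1073, 1323 and 1234 in esa1∆ sds3∆ and 1038, 1379.7 and 1176 in esa1∆ epl1∆ sds3∆. The libraries of all 3 mutant groups overlapped those of WT. None of its differences was called (log2 fold changes -0.25, -0.15 and -0.17, SE 0.17 each, limma adjusted p = 0.235, 0.458 and 0.403). They were called with quantile normalization (-0.75, -0.69 and -0.57; limma adjusted p = 0.00127, 0.00217 and 0.00691) and, in the groups labelled epl1∆ sds3∆ and esa1∆ sds3∆, with RPKM as deposited (limma adjusted p = 0.0161 and 0.0422). They shrank to -0.070 in epl1∆ sds3∆ without its replicate 3, and to -0.038 in esa1∆ sds3∆ and -0.057 in esa1∆ epl1∆ sds3∆ without WT replicate 2 (limma adjusted p = 0.739, 0.872 and 0.804).

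The route from CDP-diacylglycerol to phosphatidylcholine begins with Cho1, which makes phosphatidylserine from CDP-diacylglycerol and serine. CHO1 had 1152, 1389 and 1147 scaled RPKM in WT. The values were 809, 709 and 665 in epl1∆ sds3∆, 692, 937 and 913 in esa1∆ sds3∆ and 633, 837 and 793 in esa1∆ epl1∆ sds3∆. All 9 mutant libraries lay below the lowest WT library. CHO1 fell to 59.2% of WT in epl1∆ sds3∆ (-0.75, SE 0.15, limma adjusted p = 0.000675), to 68.9% in esa1∆ sds3∆ (-0.54, SE 0.15, limma adjusted p = 0.0061) and to 61.4% in esa1∆ epl1∆ sds3∆ (-0.71, SE 0.15, limma adjusted p = 0.00105). It was called lower under every alternative run.

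PSD1 encodes the mitochondrial decarboxylase that turns phosphatidylserine into phosphatidylethanolamine. WT libraries had 157, 179 and 166 scaled RPKM. Those labelled epl1∆ sds3∆ had 118, 89.0 and 86.1, those labelled esa1∆ sds3∆ 84.9, 107 and 105, and those labelled esa1∆ epl1∆ sds3∆ 86.7, 106 and 97.8. No mutant library reached the lowest WT library, and the 3 mutant groups overlapped each other. PSD1 fell to 58.4%, 59.1% and 57.7% of WT (log2 fold changes -0.78, -0.76 and -0.79, SE 0.14 each, limma adjusted p = 0.000301, 0.000382 and 0.000278) and was called lower under every alternative run.

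The methylation of phosphatidylethanolamine is begun by Cho2 and completed by Opi3. CHO2 had 534, 636 and 526 scaled RPKM in WT, 504, 463 and 395 in epl1∆ sds3∆, 457, 491 and 425 in esa1∆ sds3∆ and 413, 472 and 407 in esa1∆ epl1∆ sds3∆. All mutant libraries were below the lowest WT library, with the nearest epl1∆ sds3∆ library only a few percent under it. CHO2 fell to 80.4%, 81.0% and 76.2% of WT (log2 fold changes -0.32, -0.30 and -0.39, SE 0.12 each, limma adjusted p = 0.0324, 0.041 and 0.0119). The first pair of calls was the least firm of the enzymes: with only the groups compared in the fit, limma adjusted p = 0.0971 in epl1∆ sds3∆ and 0.0768 in esa1∆ sds3∆. Both were also lost without WT replicate 2 (adjusted p = 0.101 and 0.126). The call in epl1∆ sds3∆ was lost without its replicate 2 (adjusted p = 0.0574) or 3 (0.139), and that in esa1∆ sds3∆ without its replicate 1 (0.0847) or 3 (0.137).

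OPI3, the next enzyme, had 1462, 1604 and 1575 scaled RPKM in WT and 1672, 1459.8 and 1758 in epl1∆ sds3∆. The other mutant groups had 1564, 1620.0 and 1928 (esa1∆ sds3∆) and 1481, 1611 and 1765 (esa1∆ epl1∆ sds3∆). Each mutant group overlapped WT. No difference was called (log2 fold changes 0.07, 0.13 and 0.06, SE 0.11 each, limma adjusted p = 0.593, 0.316 and 0.644), and the sign depended on the scaling. With RPKM as deposited the values were -0.19, -0.12 and -0.14, above the median of all features under that setting. With quantile normalization OPI3 was called lower, at -0.46, -0.43 and -0.37 (limma adjusted p = 0.000921, 0.00141 and 0.00364).

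CKI1 encodes choline kinase, the first enzyme of the Kennedy pathway. It had 36.9, 38.8 and 40.5 scaled RPKM in WT. It had 28.5, 29.3 and 21.7 in epl1∆ sds3∆, 24.9, 30.8 and 29.8 in esa1∆ sds3∆ and 29.2, 32.8 and 27.8 in esa1∆ epl1∆ sds3∆. All mutant libraries were below all WT libraries. CKI1 fell to 68.5%, 73.6% and 77.3% of WT (log2 fold changes -0.54, -0.43 and -0.36, SE 0.12 each, limma adjusted p = 0.00204, 0.00814 and 0.0212). The call in esa1∆ epl1∆ sds3∆ was lost without WT replicate 3 (limma adjusted p = 0.0556) or without esa1∆ epl1∆ sds3∆ replicate 1 (0.0586) or 3 (0.0783).

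Ratios within a library do not depend on how libraries are scaled to each other, and are given as descriptions of deposited RPKM chosen after the values were seen; with 3 libraries against 3 the smallest 2-sided p of an exact permutation test is 0.10, and none was computed. OPI3 served as the reference, as the enzyme whose level overlapped WT. With a reference picked that way, genes that fell on the scaled values were bound to give lower ratios, which are no independent support. OPI3 was itself called lower with quantile normalization. The ratio of CHO1 to OPI3 was 0.794 ± 0.0690 in WT, 0.449 ± 0.0616 in epl1∆ sds3∆, 0.498 ± 0.0713 in esa1∆ sds3∆ and 0.465 ± 0.0483 in esa1∆ epl1∆ sds3∆ (mean ± SD, n = 3). The ratio of CHO2 to OPI3, the enzymes of consecutive methylation steps, was 0.365 ± 0.0311 in WT and 0.281 ± 0.0496, 0.272 ± 0.0448 and 0.267 ± 0.0326 in the mutant groups in the same order. For CHO1, PSD1, CHO2 and CKI1 over OPI3, all 9 mutant libraries were below all WT libraries. The share of other genes whose ratio to OPI3 was apart in this way was not counted. INO1 over OPI3 was below WT in epl1∆ sds3∆ and esa1∆ sds3∆ without overlap and overlapped WT in esa1∆ epl1∆ sds3∆, and ITR1 over OPI3 overlapped WT in all 3 groups. A ratio shows unequal change of its genes and not which of them changed.

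**Figure D4:**
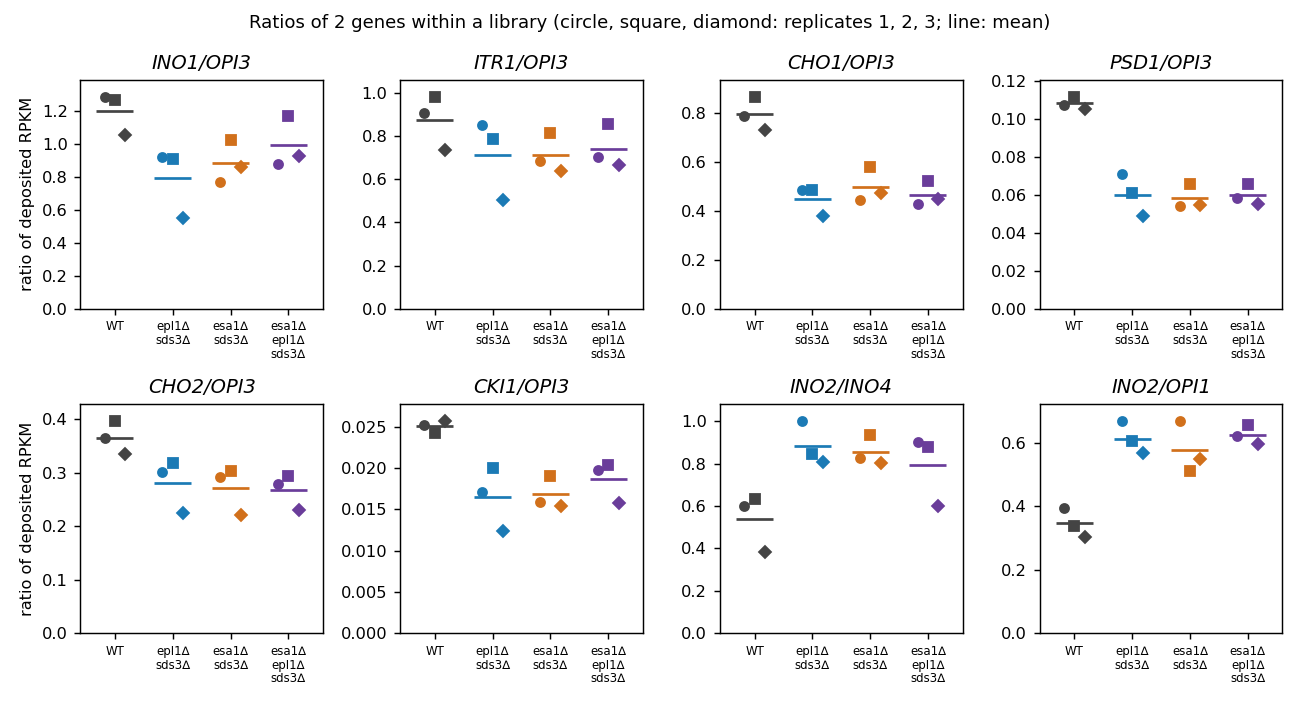
Ratio of the deposited RPKM of 2 genes in each library (vertical axes, from 0), by group; circles, squares and diamonds are replicates 1, 2 and 3, and lines are means. All mutant libraries are below WT for CHO1, PSD1, CHO2 and CKI1 over OPI3 and above WT for INO2 over OPI1, and ITR1 over OPI3 overlaps WT in each group. The share of other gene pairs that lie apart in this way was not counted.

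Among the regulators, INO2 encodes the activator subunit that carries the activation domain and that Opi1 binds. Its WT libraries had 13.5, 11.2 and 10.4 scaled RPKM. The epl1∆ sds3∆ libraries had 22.7, 17.1 and 14.6, the esa1∆ sds3∆ libraries 18.4, 17.0 and 16.9 and the esa1∆ epl1∆ sds3∆ libraries 19.5, 23.2 and 17.5. Every mutant library was above the highest WT library. INO2 rose to 155%, 149% and 171% of WT (log2 fold changes 0.57, 0.54 and 0.73, SE 0.15 each, limma adjusted p = 0.00502, 0.00728 and 0.00103), while the enzyme genes that were called fell. With RPKM as deposited, the calls in epl1∆ sds3∆ (0.33, limma adjusted p = 0.113) and esa1∆ sds3∆ (0.30, adjusted p = 0.148) were lost. The ratio of INO2 to OPI1, which no scaling touches, was 0.346 ± 0.0456 in WT and 0.613 ± 0.0507, 0.577 ± 0.0818 and 0.623 ± 0.0300 in epl1∆ sds3∆, esa1∆ sds3∆ and esa1∆ epl1∆ sds3∆, with all mutant libraries above WT. OPI1 itself averaged 86.6%, 89.9% and 94.8% of its WT level in these groups, so the ratio does not show that INO2 alone changed. INO2 over INO4 was above WT without overlap in epl1∆ sds3∆ and esa1∆ sds3∆, and overlapped it in esa1∆ epl1∆ sds3∆.

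INO4 encodes the partner of Ino2 in the heterodimer. It had 22.6, 17.7 and 27.3 scaled RPKM in WT, 22.6, 20.2 and 18.1 in epl1∆ sds3∆, 22.2, 18.2 and 21.1 in esa1∆ sds3∆ and 21.6, 26.5 and 29.2 in esa1∆ epl1∆ sds3∆. Its WT libraries spanned most of the range of the mutant libraries, and its differences (log2 fold changes -0.13, -0.11 and 0.20, SE 0.15 each, limma adjusted p = 0.484, 0.536 and 0.286) were not called. OPI1, the repressor gene, had 34.3, 33.0 and 34.3 scaled RPKM in WT, 34.0, 28.2 and 25.8 in epl1∆ sds3∆, 27.5, 33.2 and 30.7 in esa1∆ sds3∆ and 31.5, 35.5 and 29.4 in esa1∆ epl1∆ sds3∆. Every mutant group had at least 1 library within or above the WT range, and its differences (log2 fold changes -0.21, -0.15 and -0.08, SE 0.11 each, limma adjusted p = 0.122, 0.26 and 0.566) were not called. OPI1 was called lower with RPKM as deposited in epl1∆ sds3∆ (-0.46, limma adjusted p = 0.00879) and esa1∆ sds3∆ (-0.40, adjusted p = 0.0192), and without epl1∆ sds3∆ replicate 1 in epl1∆ sds3∆ (adjusted p = 0.03).

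Between the mutant groups, none of the 10 genes was called in any of the 3 pairs by limma, none had an unadjusted p under 0.05, and none was called by limma's voom on reads recovered from the RPKM. Over all features, 11 genes (0.185%) were called between esa1∆ sds3∆ and epl1∆ sds3∆, 8 (0.134%) between esa1∆ epl1∆ sds3∆ and epl1∆ sds3∆, and 3 (0.0504%) between esa1∆ epl1∆ sds3∆ and esa1∆ sds3∆. Among the 10 genes the largest differences were between esa1∆ epl1∆ sds3∆ and epl1∆ sds3∆: INO1 by 0.34, SE 0.19, limma adjusted p = 0.83 and INO4 by 0.32, SE 0.15, limma adjusted p = 0.765. INO1 was called against WT in epl1∆ sds3∆ alone, but its level was not shown to differ between the mutant groups.

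Further genes of phospholipid metabolism were read from 5 lists of 43 genes in all, of which all passed the filter. In epl1∆ sds3∆, esa1∆ sds3∆ and esa1∆ epl1∆ sds3∆ 9, 9 and 10 of the 43 rose and 19, 16 and 19 fell, with a median log2 fold change of -0.17, -0.18 and -0.23. Of all features tested, 60.1%, 59.7% and 59.4% were called in either direction, so the share called among the 43 was near the background. By direction, 30%, 29.7% and 29.3% of all features were called lower and 30.1%, 30% and 30.1% higher, while more of the 43 fell than rose. The counts of the single lists below are given as descriptions beside these shares. Of 9 further genes of the CDP-diacylglycerol route, none rose and 5, 4 and 6 fell, beside those shares over all features. Among them GPT2, an acyltransferase that begins the synthesis of phosphatidic acid, fell (log2 fold changes -0.48, -0.55 and -0.60; limma adjusted p = 0.00386, 0.00156 and 0.00083), as did CDS1, the CDP-diacylglycerol synthase (log2 fold changes -0.51, -0.43 and -0.58; adjusted p = 0.0103, 0.0237 and 0.0046). PGS1, which makes phosphatidylglycerolphosphate, fell (log2 fold changes -0.45, -0.42 and -0.58; limma adjusted p = 0.00598, 0.00934 and 0.00116), and so did SLC1, the lysophosphatidic acid acyltransferase (log2 fold changes -0.37, -0.41 and -0.60; adjusted p = 0.0262, 0.016 and 0.00165). Leaving out single libraries ended the calls of SLC1 and CDS1 in the first 2 groups (highest limma adjusted p 0.11 and 0.0916).

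Of 11 genes of the Kennedy pathway and its supply of CTP and diacylglycerol, 2, 2 and 3 rose and 5, 3 and 5 fell. Of all features, 60.1%, 59.7% and 59.4% were called, with 29.3% to 30.1% in each direction. DPP1, which removes phosphate from diacylglycerol pyrophosphate and phosphatidic acid, had 164 ± 13.2 scaled RPKM in WT and 63.4 ± 9.39, 66.4 ± 6.85 and 60.5 ± 2.29 in the mutant groups, and fell (log2 fold changes -1.37, -1.30 and -1.42; limma adjusted p = 9.76e-07, 1.66e-06 and 6.67e-07). ECT1, whose enzyme makes CDP-ethanolamine, fell (log2 fold changes -0.73, -0.70 and -0.66; limma adjusted p = 6.81e-05, 0.000101 and 0.000147). The CTP synthase genes moved the other way: URA7, the major one, rose from 30.1 ± 12 to 81.5 ± 14.0, 76.1 ± 8.50 and 73.7 ± 4.08 scaled RPKM (log2 fold changes 1.48, 1.39 and 1.35; limma adjusted p = 0.000192, 0.000311 and 0.000382), and URA8 rose (log2 fold changes 0.41, 0.57 and 0.55; adjusted p = 0.0145, 0.00199 and 0.00252). The call of URA8 in epl1∆ sds3∆ was lost with RPKM as deposited (limma adjusted p = 0.25) and without WT replicate 1 (0.058).

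Of 11 genes of inositol and choline uptake, recycling and lipid turnover, 3 rose in each group and 4, 4 and 5 fell. The shares over all features were the same 60.1%, 59.7% and 59.4%, with 29.3% to 30.1% in each direction. PLB3, a phospholipase B, rose from 20.2 ± 3.01 to 49.0 ± 2.02, 51.2 ± 0.806 and 47.5 ± 1.57 scaled RPKM (log2 fold changes 1.25, 1.31 and 1.20; limma adjusted p = 6.15e-07, 4.16e-07 and 7.06e-07). GDE1, the glycerophosphocholine phosphodiesterase, rose from 10.2 ± 0.648 to 25.3 ± 3.63, 23.0 ± 1.05 and 29.3 ± 4.68 (log2 fold changes 1.22, 1.09 and 1.42; limma adjusted p = 3.83e-06, 9.27e-06 and 1.01e-06). GIT1, the glycerophosphoinositol transporter, named here after its values were seen, rose as well (log2 fold changes 1.18, 1.39 and 1.20; limma adjusted p = 0.00112, 0.000351 and 0.000985). INM2, an inositol monophosphatase, which acts on the product of Ino1, fell from 22.2 ± 1.90 to 9.43 ± 0.432, 8.75 ± 2.47 and 10.6 ± 1.69 (log2 fold changes -1.15, -1.28 and -1.01; limma adjusted p = 7.52e-05, 3.15e-05 and 0.0002). SPO14, the phospholipase D that frees choline from phosphatidylcholine, fell (log2 fold changes -0.59, -0.70 and -0.54; limma adjusted p = 0.000237, 6.18e-05 and 0.000475). The choline transporter gene HNM1 had log2 fold changes -0.33, -0.39 and -0.53 and was called lower in the last of the 3 groups but not in the others (limma adjusted p = 0.104, 0.0585 and 0.0155). In the first 2 groups it was called with the replicate block (limma adjusted p = 0.0464 and 0.0227), with RPKM as deposited (0.00818 and 0.00474) and without WT replicate 3 (log2 fold changes -0.52 and -0.59, adjusted p = 0.00882 and 0.00468). It was also called in epl1∆ sds3∆ without its replicate 1 (limma adjusted p = 0.0257), and in esa1∆ sds3∆ with quantile normalization (0.0205) and voom (0.0442). Its call in esa1∆ epl1∆ sds3∆ was lost without WT replicate 1 (0.061) or 2 (0.06). Of the 3 fatty acid synthesis genes with UASINO, ACC1 fell (log2 fold changes -0.37, -0.35 and -0.43, limma adjusted p = 0.0193, 0.0268 and 0.0091). Its first 2 calls were lost on leaving out single libraries. They were also lost with only the groups compared in the fit (limma adjusted p = 0.069 and 0.0767). FAS1 (log2 fold changes -0.12, -0.11 and -0.20) and FAS2 (log2 fold changes 0.19, 0.16 and 0.19) were not called. FAS1 was called lower in all 3 groups with RPKM as deposited (-0.38, -0.36 and -0.40; limma adjusted p = 0.00135, 0.00185 and 0.000941) and with quantile normalization (-0.57, -0.57 and -0.51; adjusted p = 6.54e-05, 6.12e-05 and 0.000131), and in esa1∆ epl1∆ sds3∆ without WT replicate 1 (-0.30, adjusted p = 0.0441). FAS2 turned negative, without a call, under both of those scalings.

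Of 9 regulators that act on the pathway, 4 rose in each group and 4, 4 and 2 fell. Among all features 60.1%, 59.7% and 59.4% were called, with 29.3% to 30.1% in each direction. UME6, the URS1-binding repressor, had 2.54 ± 0.485 scaled RPKM in WT and 5.93 ± 0.224, 5.87 ± 0.540 and 5.96 ± 0.971 in the mutant groups, and rose (log2 fold changes 0.98, 0.96 and 0.98; limma adjusted p = 4.8e-05, 5.53e-05 and 4.58e-05). SIN3, the corepressor scaffold, rose (log2 fold changes 0.54, 0.47 and 0.52; limma adjusted p = 0.00015, 0.000505 and 0.00021), with the call in esa1∆ sds3∆ lost on RPKM as deposited (0.22, adjusted p = 0.0877). RPD3, the deacetylase itself, fell from 29.5 ± 2.68 to 18.8 ± 1.05, 19.3 ± 1.79 and 18.4 ± 1.49 (log2 fold changes -0.62, -0.59 and -0.65; limma adjusted p = 0.000171, 0.000253 and 0.000111). SCS2, the anchor of Opi1 at the endoplasmic reticulum, fell (log2 fold changes -0.32, -0.26 and -0.39; limma adjusted p = 0.00911, 0.0281 and 0.00261), and its first 2 calls were lost with only the groups compared in the fit (adjusted p = 0.0503 and 0.0859). Its call in esa1∆ sds3∆ was also lost without WT replicate 2 (limma adjusted p = 0.067) or esa1∆ sds3∆ replicate 1 (0.115).

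**Figure D5:**
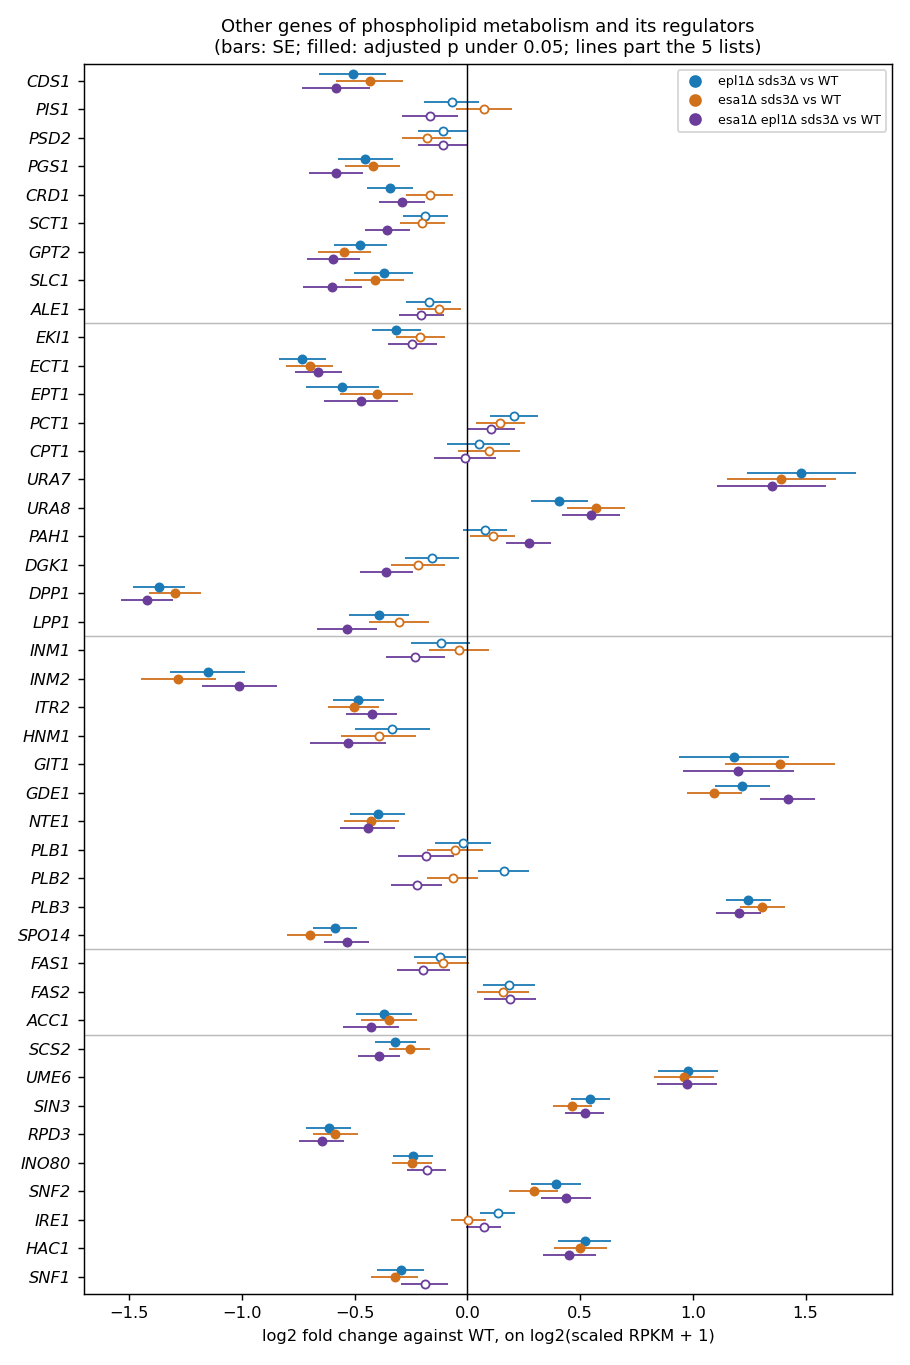
Log2 fold change against WT (horizontal axis, log2 of scaled RPKM + 1) of the 43 further genes in 5 lists parted by grey lines (CDP-diacylglycerol route, Kennedy pathway, inositol and choline supply, fatty acid synthesis, regulators); bars are standard errors and filled points have an adjusted p under 0.05 in limma. URA7, PLB3, GIT1, GDE1 and UME6 lie far to the right, DPP1 and INM2 far to the left, and no gene of the first list is called higher.

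The gene whose pattern over the 12 libraries was most like that of INO1, among the 3811 features averaging 10 RPKM or more and by the root mean square difference of centred log2 values, was XPT1, a xanthine phosphoribosyltransferase gene, at 0.140. SAM2, which encodes a synthase of S-adenosylmethionine, the methyl donor of Cho2 and Opi3, was next at 0.146, and CKI1 followed at 0.171. For CHO2 the nearest was NEO1 (0.0588), for PSD1 YPR147C (0.0734), for OPI3 ENO1 (0.0689) and for INO2 MAK11 (0.0872). SAM2 and ENO1 have near-identical copies (SAM1 and ENO2), and how reads shared between copies were counted is not given in the sources used here. The pair of INO1 and CKI1 was the one case in which another of the 10 genes stood among the 3 nearest.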

How the data were processed

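The 12 deposited files hold RPKM per feature, made by the authors. Hot-phenol RNA was cleared of DNA and, with Ribo-zero, of ribosomal RNA before stranded TruSeq library preparation, per the labels' protocols. Tools named in the submitters' processing notes are STAR, Bowtie 0.12.2 and cutadapt, with the build sacCer3; which program counted the reads, its strand setting and its treatment of multiply mapped reads are not given in the sources used here. RPKM was divided by a median-of-ratios factor per library (0.914 to 1.22), and log2(scaled RPKM + 1) was fitted with limma 3.58.1 (R 4.3.3, empirical Bayes with a mean trend) to all 12 libraries, for the 5956 features averaging 1 RPKM or more. Calls are at a Benjamini-Hochberg adjusted p under 0.05 over all of them. RPKM times exon length (RefSeq R64, 6048 features matched by locus tag) gave whole reads within 0.01 for 99.71% to 99.75% of values under 5000 reads; these recovered reads give the depths and a voom alternative. Depth limits precision most for INO2 and INO4, and read numbers cover counting error only. Whether the triplicates came from separate clones is not given in the sources used here, so p-values measure the spread between these cultures.

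The 10 genes and the 5 further lists were chosen with earlier results of these data known. Named are all 10 genes in every library, the 3 genes labelled as deleted, SCS2, UME6, SIN3 and RPD3, and the nearest patterns. From each further list, up to 4 genes with the smallest adjusted p in esa1∆ epl1∆ sds3∆ against WT are named. Genes needed to say which did not pass are named as well. HNM1 was named outside this rule, and GIT1 was added after its values were seen. Same-numbered libraries deviated together in every pair (correlation above 0.1) only for esa1∆ sds3∆ against WT (0.124, 0.125 and 0.182), and the labels name no shared day, so a replicate block was an alternative. The other alternatives were RPKM as deposited, quantile normalization, pseudocounts of 0.1 and 5, no filter, a minimum mean of 10 RPKM, only the groups compared, voom, and leaving out each library.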

Additional observations from a re-analysis of the deposited data

How the results depend on the processing

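The 6, 5 and 5 genes called of the 10 (epl1∆ sds3∆, esa1∆ sds3∆ and esa1∆ epl1∆ sds3∆ against WT) stayed at 6, 5 and 5 under both pseudocounts, no filter, the minimum of 10 RPKM, voom and the replicate block; leaving out single libraries gave 4 to 7, 4 to 5 and 4 to 5. Quantile normalization called 8 genes in each. With RPKM as deposited, 7 were called in epl1∆ sds3∆, where ITR1 and OPI1 were gained and INO2 was lost. In esa1∆ sds3∆ that setting gained INO1, ITR1 and OPI1 and lost INO2. With only the groups compared, the CHO2 calls in epl1∆ sds3∆ and esa1∆ sds3∆ were lost. Of 450 alternative values of the 10 genes against WT, 414 kept direction and call. The 414 include genes that stayed uncalled, and the changes of filter leave the fold changes of these genes as they were. That share is therefore no measure of how firm the calls are. The reversals not given above were, with single libraries left out, OPI3 in esa1∆ epl1∆ sds3∆ (-0.0011 to 0.13, negative without its replicate 3) and INO4 in epl1∆ sds3∆ (-0.28 to 0.0156) and esa1∆ sds3∆ (-0.27 to 0.0291; both positive without WT replicate 3), then INO4 in esa1∆ epl1∆ sds3∆ as deposited (-0.0026), and INO1 between esa1∆ epl1∆ sds3∆ and esa1∆ sds3∆ (-0.0606 to 0.24, negative without esa1∆ sds3∆ replicate 1 or esa1∆ epl1∆ sds3∆ replicate 2). OPI3 reversed to -0.19, -0.12 and -0.14 as deposited and to -0.46, -0.43 and -0.37 with quantile normalization. FAS2 reversed as deposited (-0.072, -0.10 and -0.017) and with quantile normalization (-0.12, -0.19 and -0.023), and FAS1 without WT replicate 2 in the first 2 groups (-0.22 to 0.0039 and -0.21 to 0.0168 over the libraries left out). Over all features, the 11, 8 and 3 genes called between mutant groups became 7 to 8, 4 to 6 and 3 without single libraries, and the 3 became 6 with only the groups compared. The cause was not tested. Apart from HNM1, the replicate block changed no call of a gene named here. The 99 to 224 reads of INO2 and 61 to 214 of INO4 limit what can be seen of either.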

Other observations

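Within a group the 10 genes often had the same extreme library. Of the 3 epl1∆ sds3∆ libraries, replicate 3 was the lowest for 9 of the 10 genes, all but OPI3, whereas it was the lowest for 36.2% of all features tested. Replicate 1 of that group was the highest for 8 of the 10 genes and for 33.8% of all features. In esa1∆ epl1∆ sds3∆, replicate 2 was the highest for 8 of the 10 genes, all but OPI3 and INO4, against 35.0% of all features, and in esa1∆ sds3∆ replicate 1 was the lowest for 7 against 36.3%. In esa1∆ epl1∆ sds3∆ replicate 1 was the lowest for 6 against 37.3%, and in WT replicate 2 was the highest for 6 against 35.9%. OPI3 was among the genes with these extremes in esa1∆ sds3∆, in WT and at the low end of esa1∆ epl1∆ sds3∆. It was highest in replicate 3 of every mutant group. This pattern was noticed after the values were seen.

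The ratio of INO1 to CHO1 in deposited RPKM was 1.51 ± 0.104 in WT, 1.74 ± 0.246 in epl1∆ sds3∆, 1.77 ± 0.0400 in esa1∆ sds3∆ and 2.12 ± 0.108 in esa1∆ epl1∆ sds3∆ (mean ± SD, n = 3). The esa1∆ sds3∆ and esa1∆ epl1∆ sds3∆ libraries lay above all WT libraries, while epl1∆ sds3∆ overlapped WT. No test was run on this ratio, which was chosen after the values were seen, and the share of other gene pairs apart from WT in this way was not counted.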
